A study of Homo sapiens with 14 samples.

Results

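RUNX1 peaks with no SKI peak over them were taken from the peak list of a RUNX1 chromatin immunoprecipitation (ChIP-seq) in HL60 cells, a human acute myeloid leukaemia line. The peaks were chosen by the called positions of both proteins: a RUNX1 peak was taken when it shared not even 1 bp with any peak of 3 SKI ChIP-seq lists. That held for 272 of 5581 RUNX1 peaks, or 4.87% (95% Wilson interval 4.34 to 5.47, counting error only), here called SKI-free RUNX1 peaks. The other 5309 are called RUNX1 peaks with SKI: 3139 at a shared SKI site, where every SKI list has a peak, and 2170 in other SKI peaks. SKI-free means free of a listed SKI peak and nothing more. The same peak calls that chose these regions supply most of their values, which are therefore given as a description without tests.

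The RUNX1 sample and SKI replicates 1 and 2 came from unmodified (wild-type) HL60 cells, and the remaining SKI sample from CRISPR/Cas9 control HL60 cells labelled CTR-1. All were grown in RPMI medium with serum and given no treatment that the labels name. The series has 14 samples, and the 10 others were not analysed here. RUNX1 was profiled once, so no RUNX1 value has a replicate behind it, and the labels do not say whether the control cells are 1 clone.

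RUNX1 is the DNA-binding subunit of core-binding factor, which sets the gene programmes of blood stem cells and of myeloid and lymphoid lineages and is often altered in acute leukaemia. It binds a short DNA core through its Runt domain together with CBFB. SKI is a corepressor with no strong DNA contact of its own, brought to chromatin by partners such as SMAD proteins, and it recruits histone deacetylase complexes.

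The SKI lists differ greatly in length, and the number of SKI-free peaks rests mainly on the longest. WT SKI replicate 1 holds 54841 peaks, WT SKI replicate 2 holds 14431 and the CTR-1 list 14019, with median tags of 97, 56 and 61 per peak. The RUNX1 list has a median of 56 tags (mapped reads counted in the peak). Without WT SKI replicate 1 the number of SKI-free RUNX1 peaks was 1415, their intergenic share 34.3% and their median fold enrichment 15.1. Without WT SKI replicate 2 the number was 277 and without the CTR-1 list 281.

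The 2 promoters below belong to genes that lie nearest SKI-free peaks of the transcription start site (TSS) class. SSTR5-AS1 lies nearest the strongest SKI-free peak of the TSS class, and LINC00910 is the one gene whose window of 250 bases before to 50 after the TSS was both reached by a SKI-free peak and matched by symbol. The sequences are RefSeq's, build GRCh38.p14, chr16:1078682-1078981 and chr17:43388849-43389148, both on the minus strand and written 5′ to 3′; the peaks themselves are on hg19, and the RefSeq start need not be the start the authors used. Capitals would mark the RUNX core hexamers TGTGGT and TGCGGT on either strand (ACCACA and ACCGCA).
SSTR5-AS1: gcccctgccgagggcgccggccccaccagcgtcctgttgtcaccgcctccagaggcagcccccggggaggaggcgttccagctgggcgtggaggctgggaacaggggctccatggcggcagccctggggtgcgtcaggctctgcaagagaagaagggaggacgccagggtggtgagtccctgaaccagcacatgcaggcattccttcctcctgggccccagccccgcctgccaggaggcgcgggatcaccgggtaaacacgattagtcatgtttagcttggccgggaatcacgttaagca
LINC00910: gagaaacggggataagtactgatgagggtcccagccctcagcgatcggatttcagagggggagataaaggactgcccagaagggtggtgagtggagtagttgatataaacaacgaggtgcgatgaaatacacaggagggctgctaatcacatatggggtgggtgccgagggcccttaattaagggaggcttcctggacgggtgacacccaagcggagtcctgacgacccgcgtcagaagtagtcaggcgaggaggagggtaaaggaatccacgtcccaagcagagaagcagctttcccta
Neither window holds one of these hexamers, so neither shows a capital. The LINC00910 peak reached its gene's window, but its summit lay 253 bp upstream of the authors' TSS, beyond the window's 250 bases. The lack of a hexamer in that window therefore does not describe the DNA at the summit. The SSTR5-AS1 peak did not reach its gene's window, so the lack of a hexamer there says nothing about that peak. How far the printed SSTR5-AS1 sequence lies from the peak was not measured across the builds. Of the 35116 RefSeq promoters of this length, 13.1% hold the first hexamer, 7.29% the second and 19.6% at least 1 of them. Of the 17 SKI-free peaks of the TSS class, 4 had a gene that matched a promoter by symbol.

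SKI-free RUNX1 peaks were low in fold enrichment but not in tags. Fold enrichment, the ratio over background that the authors' peak caller gave, ran from 1.76 to 90.7, with quartiles of 3.76 and 14.1. It was under 5 in 106 SKI-free peaks (39.0%, 33.4 to 44.9) and in 54 RUNX1 peaks with SKI (1.02%, 0.780 to 1.32). It reached 20 in 44 SKI-free peaks (16.2%, 12.3 to 21.0) and in 2471 peaks with SKI (46.5%, 45.2 to 47.9). Tags per peak had a median of 55 in SKI-free peaks (range 30 to 324), against 49 in RUNX1 peaks in other SKI peaks and 64 in those at a shared SKI site. Median width was 552 bp, against 519 and 583 bp.

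The ratio of tags to fold enrichment differed as well. It was 8.10 tags per unit of fold enrichment at the median SKI-free peak, against 3.08 in other SKI peaks and 3.34 in shared SKI sites. How the fold enrichment was computed is not given in the sources used here, so this ratio is a description of the deposited columns. The −log10 p-value had a median of 31.6 and reached 10 in 202 SKI-free peaks (74.3%), against 99.8% of RUNX1 peaks with SKI. At the upper end, 4 SKI-free peaks had a −log10 p-value of at least 300, where the deposited values level off.

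**Figure D1:**
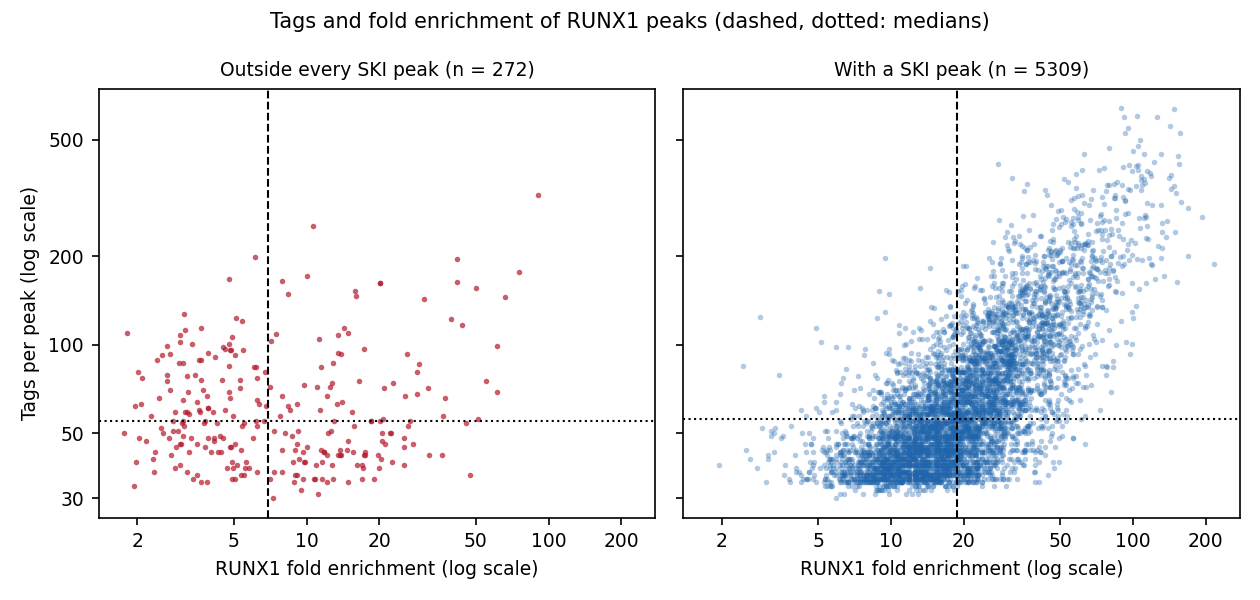
Tags per peak against RUNX1 fold enrichment, both on log scales, for the 272 SKI-free RUNX1 peaks (left) and the 5309 RUNX1 peaks with SKI (right); each point is 1 peak, and dashed and dotted lines mark the medians. In the left panel many peaks with over 55 tags lie at folds under 5, a corner that holds few peaks in the right panel.

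Genes named below are the authors' nearest genes, and an intron or exon class need not refer to that gene. The strongest SKI-free peak was intronic, on chromosome 10, 125531950 to 125533157, 3385 bp upstream of the TSS of the antisense gene RP11-391M7.3. It had a fold enrichment of 90.7 and 324 tags, the most of any SKI-free peak, and the nearest SKI peak was 75297 bp away. The intronic peak nearest ST7, a candidate tumour suppressor gene, at chromosome 7, 116671274 to 116671908, had a fold of 75.6 and 177 tags. An intergenic peak 33386 bp past the TSS of the pseudogene AC016696.1 (chromosome 2, 46450283 to 46451168) had 66.4 and 145 tags. These 3 stood well above the SKI-free median of 6.92.

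Intronic peaks made up 7 of the 15 highest folds. ADARB2, which encodes a brain member of the RNA-editing deaminase family, had one of fold 61.4 with 99 tags, 192608 bp from SKI. ELOVL6, the gene of a fatty acid elongase, had 61.1 with 69 tags. At ITIH5, of the inter-alpha-trypsin inhibitor family, the fold was 51.0 on 56 tags. RFX3, a transcription factor gene known for cilia, had 50.4 with 156 tags over a peak of 342 bp. TFDP2, which encodes a partner of E2F factors, had 41.7 with 164 tags. The tags behind these folds differed widely, and peaks with few tags carry the larger relative counting error. Further intronic peaks with high folds lay nearest RP13-348B13.2 at 31.8, CTD-3179P9.2 at 28.7 and RP11-484L7.1 at 25.4.

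The rest of the 15 were 5 intergenic, 2 exonic and 1 TSS peak. Besides AC016696.1, the intergenic ones had folds of 55.3 at AL139812.1 on the X chromosome, 47.4 at RP11-436F21.1, 42.1 at RN7SL571P and 39.7 at AC097452.1. The peak at RN7SL571P had 196 tags and that at RP11-436F21.1 had 36. Below the 15, intergenic peaks lay nearest RP11-342C24.8 at 36.6, AC008132.1 at 36.4, ZBTB40, a zinc finger gene, at 32.2, RNA5SP347 at 30.7 and RPS2P55 at 29.1. The exonic peaks lay nearest CSMD2, a CUB and sushi domain gene, with a fold of 43.9 and 117 tags, and UBAC1, a ubiquitin ligase subunit gene, with 37.5 and 66 tags. Across the 15, the distance to the nearest SKI peak ran from 2726 to 623415 bp, with a median of 23238 bp.

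High tags and high fold overlapped in part. Of the 10 SKI-free peaks with the most tags, those nearest RP11-391M7.3, ST7, RN7SL571P and TFDP2 were also among the 15 highest folds. The other 6 had folds from 4.76 to 20.1. ZNF462, a zinc finger gene, had an intronic peak of 254 tags and fold 10.7, 1728 bp from SKI. RPAP3, a cofactor gene of RNA polymerase assembly, had 165 tags and fold 7.88. RPL21P109, a ribosomal protein pseudogene, had 163 tags and fold 20.1.

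By the authors' position classes, SKI-free peaks were mostly intergenic: 162 of 272 (59.6%, 53.6 to 65.2), against 26.4% of RUNX1 peaks with SKI (25.2 to 27.6). Introns held 69 (25.4%), against 37.3%. The TSS class held 17 (6.25%, 3.94 to 9.78), against 24.4% (23.3 to 25.6). Upstream peaks were 19 (6.99%), against 6.27%, and exonic ones 5 (1.84%), against 5.61%. The file headers name 1250 bp for the TSS class and 5000 bp for the upstream class, but the deposited TSS distance was larger for 3 SKI-free peaks of each. The median distance to the nearest TSS was 24389 bp for SKI-free peaks and 6768 bp for peaks with SKI.

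Fold enrichment within the classes did not follow one pattern. The median was 3.87 in SKI-free TSS peaks, against 17.9 in TSS peaks with SKI, and 4.93 in intergenic ones, against 18.9. For introns it was 12.3, against 19.2, and in the upstream class 9.80, against 19.4. The 5 exonic peaks had a median of 26.8, against 20.8 for exonic peaks with SKI.

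**Figure D2:**
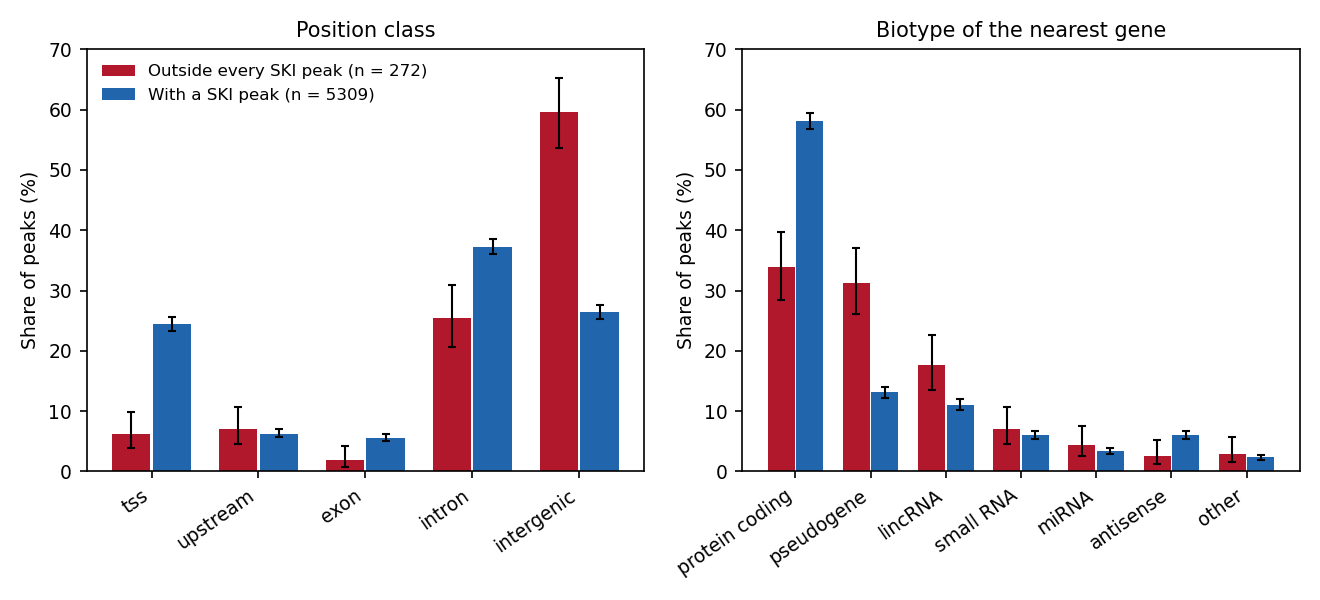
Share of peaks in each position class (left) and by biotype of the nearest gene (right), in percent, for SKI-free RUNX1 peaks (red) and RUNX1 peaks with SKI (blue); whiskers are 95% Wilson intervals, which cover counting error only. Intergenic positions and pseudogenes had larger shares among SKI-free peaks, TSS positions and protein-coding genes smaller ones.

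Within 1000 bp of a TSS lay 12 SKI-free peaks (4.41%, 2.54 to 7.55), against 20.1% of RUNX1 peaks with SKI. SSTR5-AS1, the antisense gene at a somatostatin receptor gene, had a peak 548 bp upstream with fold 45.5 and 54 tags (chromosome 16, 1117535 to 1118080). RP11-685N10.1 had one 78 bp upstream with fold 20.1 and 55 tags. LINC00649, with its peak 948 bp upstream, had fold 8.93 and 36 tags. The remaining 9 had folds from 2.09 to 4.81 and 34 to 96 tags. They were LINC00861 at 4.81, NBPF1 at 4.02, RNA5S4 at 3.87, RNA5S16 at 3.77, AC008132.1 at 3.61, LINC00910 at 3.15, KB-1183D5.13 at 3.09, MTRNR2L2 at 2.85 and AC011043.1 at 2.09. RNA5S4 and RNA5S16 are copies of the 5S ribosomal RNA gene, and MTRNR2L2 belongs to a family of nuclear copies of mitochondrial rRNA. Reads can map to more than 1 such copy, and how the authors treated them is not given in the sources used here, so these positions are uncertain.

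Of the 17 peaks in the TSS class, 7 reached the window from 250 bp before to 50 bp after the TSS. LINC00910 (chromosome 17, 41465974 to 41466533), whose promoter is printed above, had its summit 253 bp upstream, and all 3 SKI lists had a peak within 987 bp of it. SSTR5-AS1 had no SKI peak closer than 34782 bp. The TSS class also held SNORA70 with fold 28.6 and a Y_RNA gene with 26.1.

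Exonic peaks had a protein-coding nearest gene in 4 of 5 cases. KIAA0368, the gene of a proteasome adaptor, had a fold of 26.8 with 55 tags, and DYNC1I1, a dynein intermediate chain gene, 26.2 with 53 tags, beside CSMD2 and UBAC1 above. The fifth exonic peak lay nearest AC069278.4, with a fold of 6.24. Upstream peaks topped out lower, at 18.5 for XXbac-B33L19.3, followed by STX2, a syntaxin gene, at 17.5 and RNU6-872P and RP11-557C18.4 at 17.0 each. They went on with AC073597.1 at 13.5, RCN1P1 at 12.1, the zinc finger gene ZSCAN25 at 11.2 and the kinase gene OXSR1 at 10.0. RNY1P8 and RP11-534L6.2 had 9.87 and 9.80.

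Nearest genes were protein-coding for 92 SKI-free peaks (33.8%, 28.5 to 39.6), against 58.1% of RUNX1 peaks with SKI. Pseudogenes were nearest to 85 (31.3%, 26.0 to 37.0), against 13.1%, and lincRNA genes to 48 (17.6%), against 11.1%. Small RNA genes were nearest to 19 SKI-free peaks (6.99%), against 5.99%, and miRNA genes to 12 (4.41%), against 3.33%. Antisense genes were nearest to 7 (2.57%), against 6.03%. Another biotype was listed for 8 and none for 1. Among the 44 SKI-free peaks with a fold of at least 20, 15 lay nearest a protein-coding gene, 12 a lincRNA gene and 6 a pseudogene.

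SKI-free peaks were nearest to 197 distinct genes, and 39 of these were also nearest to a RUNX1 peak with SKI. Of 70 protein-coding ones, 23 had both kinds. At ELOVL6 the SKI-free peak had a fold of 61.1, and the stronger of its 2 peaks with SKI 60.0. At ST7 the values were 75.6 without SKI and 42.3 with SKI, at RFX3 50.4 and 13.4, and at DYNC1I1 26.2 and 28.7. At FCGR2A, which encodes an IgG receptor of myeloid cells, 2 SKI-free peaks lay 43351 and 36020 bp upstream with folds of 6.06 and 3.46, and a peak with SKI lay 191 bp past the TSS with 21.8. By the highest fold of each kind, the SKI-free peak was the stronger at 5 of the 23 genes and the weaker at 18.

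Genes of blood and signalling programmes were counted among the nearest genes. Of 169 genes in 6 lists, FCGR2A alone was nearest to a SKI-free peak, while 57 were nearest to a RUNX1 peak with SKI. That is 0.508% of the 197 genes nearest to a SKI-free peak and 1.404% of the 4060 nearest to a peak with SKI, and a count of 1 carries wide counting error. Both totals include genes of every biotype, and 70 of the 197 were protein-coding. The part of biotype in this difference was not tested. The counts by list below rest on the same unequal totals. Among 36 haematopoietic transcription factor genes the counts were 0 for SKI-free peaks and 14 for peaks with SKI, and among 36 myeloid genes 1 and 15. Among 30 genes known to be regulated by RUNX1 they were 0 and 9, and among 30 of TGF-beta and SMAD signalling 0 and 12. Megakaryocyte genes gave 0 and 4 of 25, and lymphoid genes 0 and 5 of 30.

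SKI-free peaks were spread unevenly over chromosomes. Chromosomes 3 and 10 held the most, 23 each, which was 6.46% and 10.0% of their RUNX1 peaks. On chromosome 8, 16 of 93 RUNX1 peaks were SKI-free (17.2%, 10.9 to 26.1), on chromosome 5 21 of 226 (9.29%), on X 10 of 103 (9.71%) and on chromosome 21 9 of 88 (10.2%). At the low end stood chromosome 6 with 5 of 366 (1.37%, 0.585 to 3.16) and chromosome 1 with 16 of 671 (2.38%). Single runs of neighbouring peaks held 13 of the 23 on chromosome 3 and 8 of the 23 on chromosome 10. On chromosome 8, 9 of the 16 lay at 8q24. The intervals count such neighbours as separate peaks. Chromosomes 1 to 22 and X together held 252.

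All 11 RUNX1 peaks listed on chromosome Y were SKI-free. They lay between 13659138 and 13869594, had folds of 1.98 to 7.37 and 40 to 127 tags, and all were intergenic. The SKI lists held 9, 0 and 0 peaks on that chromosome. How reads that map to more than 1 place were treated is not given, so the positions on Y are uncertain. Whether the cells used carry a Y chromosome was not examined. The list of WT SKI replicate 1 carries row numbers of a longer table, with gaps. Contigs aside, the share of its numbers present was lowest on Y, at 37.5%, followed by 59.5% on chromosome 8 and 59.6% on chromosomes 4 and X, and it was highest on chromosome 22, at 92.6%. The part of these gaps in the shares above was not tested.

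**Figure D3:**
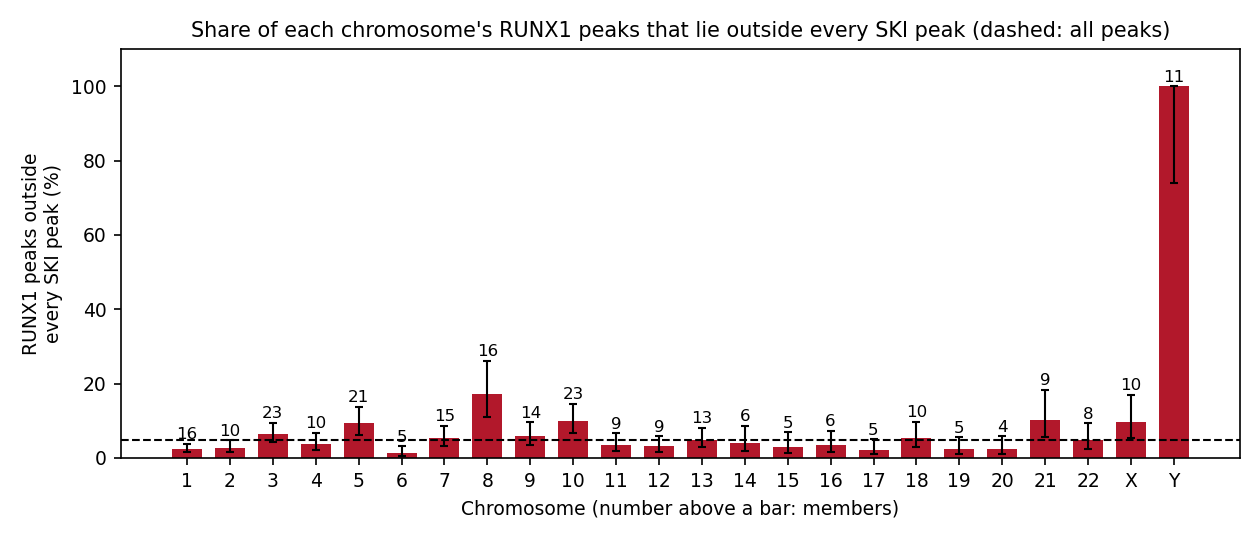
Percentage of each chromosome's RUNX1 peaks that were SKI-free, with 95% Wilson intervals; numbers above bars count the SKI-free peaks and the dashed line marks 4.87%, the share over all peaks. Chromosome Y stands at 100% on 11 listed peaks, whose positions are uncertain, and chromosomes 8, 21, 10, X and 5 are the next highest. The intervals count neighbouring peaks as separate.

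Unplaced contigs held 9 SKI-free peaks, of 15 RUNX1 peaks on contigs. GL000195.1 and GL000212.1 had 3 each, and GL000214.1, GL000216.1 and GL000243.1 had 1 each. Their folds ran from 2.09 to 8.52, with a median of 2.76, on 37 to 93 tags. On 2 of the contigs no SKI list has any peak, so no distance to SKI exists there. No coordinates were repeated: no SKI-free peak shared its start, its end or any base with another RUNX1 peak.

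Many of the weak SKI-free peaks sat close together. Joined within 100 kb of each other, they formed 166 single peaks, 20 pairs and 14 clusters of at least 3, and the clusters held 66 peaks (24.3%). The largest was an intergenic run of 13 peaks on chromosome 3, 195211503 to 195233365, whose nearest gene was PPP1R2, which encodes an inhibitor of protein phosphatase 1. Its peaks covered 65.2% of 21863 bp. They had folds of 4.80 to 9.52 and 32 to 199 tags, and the widest was 2807 bp. The nearest SKI peak was 35627 bp from its edge.

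The next largest clusters were 8 peaks on chromosome Y (13801018 to 13869594), 8 on chromosome 10 (39112202 to 39153586, near RP11-96F8.1) and 6 on chromosome 5 (46333330 to 46405520, near CTD-2013M15.1). Their folds stayed within 1.98 to 5.48, 2.01 to 5.09 and 2.36 to 4.62. On X, 4 peaks near RP11-3D23.1 (61814833 to 61881714) had 2.28 to 5.43. Of the remaining 9 clusters, each of 3 peaks, 8 had a lowest fold under 4. The other one, on chromosome 6 (87813917 to 87838926), held folds of 19.1 near CGA, the gene of the glycoprotein hormone alpha chain, and 12.1 and 16.5 near RCN1P1. At AC008132.1 on chromosome 22 a peak of fold 36.4 (18716019 to 18716364) stood beside peaks of 5.38 and 3.61. The clusters at OR4C50P, RP11-715L17.1 and RP11-643N23.1 had highest folds of 5.29, 4.10 and 4.69. Whether the clusters, including the largest, lie in repeated sequence or near centromeres was not tested. How reads that map to several places were treated is not given, so the positions of clustered peaks are uncertain. The genes named for the clusters mark the place only.

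On 8 chromosomes, 17 SKI-free peaks lay in the longest stretch of the chromosome without any SKI peak, and 5 of them also belong to the clusters above. Such a stretch had a median length of 3841658 bp over chromosomes 1 to 22 and X. Whether these stretches span centromeres or gaps of the genome build was not examined. The 17 peaks had a median fold of 3.80 on 50 tags, and 14 were intergenic. No RUNX1 peak with SKI can lie there. The strongest was nearest AC090602.2 on chromosome 15, with a fold of 13.7. MTRNR2L1, of the same copy family as MTRNR2L2, had 4.51.

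At 8q24, 9 SKI-free peaks lay between 126398442 and 130660235 on chromosome 8. They had a median fold of 2.65 on a median of 96 tags, against 33.1 and 44 tags in the 3 RUNX1 peaks with SKI of the same 5 Mb window. Those nearest MYC had folds of 2.65 and 2.04, and those at the lincRNA gene CCDC26 1.82, 10.0 and 3.65. Of the places described, this one had the highest ratio of tags to fold, with a median of 28.3, against 2.09 in its 3 peaks with SKI. The part of the copy number of 8q24 in these values was not tested.

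Leaving out contigs, chromosome Y, the longest SKI-free stretches, 8q24 and the clusters left 185 SKI-free peaks. Their median fold was 11.0 on 51 tags, and 43 of the 44 peaks with a fold of at least 20 were among them. Intergenic peaks were 88 of these (47.6%, 40.5 to 54.7) and intronic ones 64 (34.6%, 28.1 to 41.7). Pseudogenes were nearest to 40 (21.6%). The ratio of tags to fold was 5.02 at the median. Other than the tags, these values lay between those of all SKI-free peaks and those of RUNX1 peaks with SKI.

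Some SKI-free peaks had matching surroundings. On chromosome 10, peaks at 46815140, 47295793 and 49004804 lay 6369, 6314 and 6376 bp upstream of RP11-342C24.8, RP11-144G6.10 and RP11-508M1.7. Each was also 51826, 51836 or 51864 bp from the nearest peak of WT SKI replicate 1, and their folds were 36.6, 25.4 and 25.3. The paired genes TIMM23B and TIMM23, for a mitochondrial import channel, had intronic peaks 1580 and 1605 bp past the TSS with folds of 17.2 and 22.1, both under 880 bp from SKI. Such sets may not be independent peaks.

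The nearest SKI peak of any list was between 70 and 1861121 bp from a SKI-free peak, for the 270 on a chromosome with SKI. The quartiles were 12090 and 159334 bp and the median 35934 bp. Within 1000 bp lay 9, within 10000 bp 52 and within 100000 bp 189, while 6 were more than 1000000 bp away. The nearest SKI peak came from WT SKI replicate 1 for 238, from WT SKI replicate 2 for 18 and from the CTR-1 list for 14. The next RUNX1 peak of any kind lay 44848 bp away at the median, and the next RUNX1 peak with SKI 255454 bp.

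Fold and position were also described by distance. The 9 within 1 kb had a median fold of 14.8 with 33.3% intergenic, and the 43 from 1 to 10 kb had 10.0 with 32.6%. The 137 from 10 to 100 kb had 7.46 with 56.2%, and the 81 beyond 100 kb had 4.39 with 81.5%. Median tags were 39, 55, 52 and 68, so the order of the bins by tags was not that by fold.

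**Figure D4:**
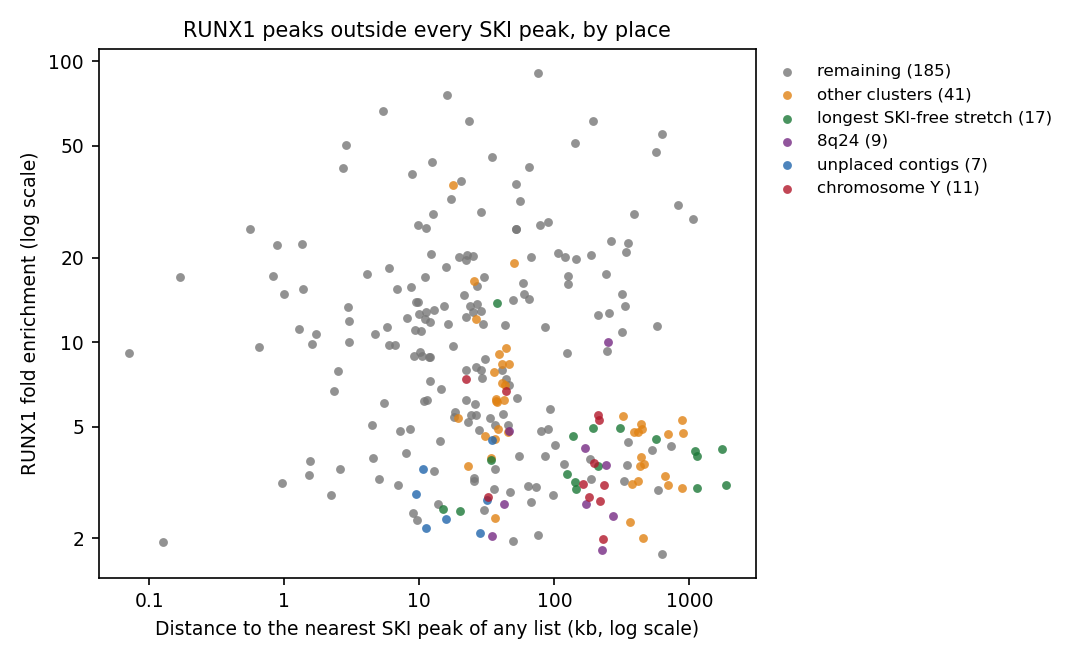
RUNX1 fold enrichment of the SKI-free peaks against distance to the nearest SKI peak of any list in kb, both on log scales, coloured by place; 1 point per peak, 270 in all. Peaks on Y, contigs, 8q24 and in the longest SKI-free stretches lie mostly under a fold of 5, and the grey points, outside these places and the clusters, hold 43 of the 44 peaks with a fold of at least 20.

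Values at the border of the rule were as follows. Just outside it, the nearest SKI-free peak was 70 bp from SKI at TCEB1P28 on chromosome 19 (2553472 to 2553959, fold 9.13), with the 3 lists 70, 141 and 87 bp away. The next were AL589743.1 at 126 bp, RNU6-872P at 169 bp, RP11-408N14.1 at 555 bp and GBP1P1 at 652 bp, with folds of 1.94, 17.0, 25.3 and 9.64. For RUNX1 peaks with SKI, the largest overlap over the 3 lists was taken for each peak. It was smallest at TP63, with 277 bp (fold 31.0), followed by CNN2P2, TFAM, RP11-313J2.1 and RP11-811I15.1 with 280 to 283 bp. All of these but RP11-313J2.1 were covered whole, so their small overlaps are the widths of narrow peaks. In single lists the smallest overlap was 250 bp for WT SKI replicate 1, 6 bp for WT SKI replicate 2 and 12 bp for the CTR-1 list. By the largest overlap, 4716 of the RUNX1 peaks with SKI were covered whole (88.8%), and 4 by less than 50%. The least covered peak had 38.2% of its width under SKI. At the far end, the peaks at RP11-715L17.1 on chromosome 7 lay up to 1861121 bp from SKI with folds of 3.01 to 4.16, and one at RP11-775H9.3 on chromosome 4 (137000124 to 137000505), 1060027 bp away, had a fold of 27.4.

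In the list of WT SKI replicate 1, 20357 of 75198 row numbers do not occur among the rows used here. What those rows held was not analysed here, but since row numbers follow genome order, 20319 of them can be placed between listed peaks. Of 267 SKI-free peaks between 2 such SKI peaks, 73 had no missing row in their interval, with a median fold of 8.69, and 194 had at least 1, with 6.31. For those 194 it cannot be told whether a SKI peak of the longer table met them. Over all lengths, 65.0% of the 180 intervals with a SKI-free peak had a missing row, against 23.8% of other intervals. Longer intervals hold more missing rows, and the median lengths were 118150 and 12342 bp. Under 10 kb the shares were 40.0% of 5 intervals with a SKI-free peak, against 6.54% of others. From 10 to 50 kb they were 29.7% of 37, against 25.9%. Between 50 and 200 kb they were 70.6% of 68 (58.9 to 80.1), against 53.1%, and above 200 kb 80.0%, against 81.7%. The intervals around RP11-391M7.3, RFX3, CSMD2 and RN7SL571P had none, so among the 15 highest folds these 4 have no SKI row in question in that list.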

How the data were processed

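The data were 4 lists of ChIP-seq peaks from HL60 cells, each called per sample and grouped by its title. The submitters' processing notes name MACS 1.4, Bowtie2, bcl2fastq and deepTools, and hg19 and GRCh37 as builds, without saying what each was used for. Neither the control library of a ChIP nor its read depth is stated there. Per the file headers, the deposited lists give for each peak a −log10 p-value, a fold enrichment (ratio over background), a count of tags, a position class, the nearest Ensembl gene and a signed distance to its TSS. The lowest −log10 p-value was about 5.01 in the RUNX1 list. The deposited FDR column was not used.

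Overlaps of at least 1 bp, distances and clusters were computed with pandas 2.3.3 and numpy 2.4.6 under Python 3.11.15, and the overlaps were checked with bedtools 2.31.1 and on simulated peaks. With 1 RUNX1 list no test was run. Shares have 95% Wilson intervals, which cover counting error only. The peaks, lists and alternatives were chosen with earlier results of these data known. Genes named were those of the 15 highest folds, the 10 highest tag counts, the 15 highest folds within 1000 bp of a TSS (12 exist), the highest folds of each further class, the gene lists, the 5 nearest to and 5 farthest from SKI, the contigs and the clusters; the copies on chromosome 10, AC090602.2, MTRNR2L1, SNORA70, Y_RNA and the genes at 8q24 were added after their values were seen. Alternatives left out each SKI list, raised the −log10 p-value to 10 in either kind of list, changed the overlap rule, held the SKI lists to equal length, required 35 tags or dropped contigs and Y.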

Additional observations from a re-analysis of the deposited data

How the results depend on the processing

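The alternative without missing rows around a peak and the one without contigs, chromosome Y, the longest SKI-free stretches, 8q24 and clusters were chosen after seeing the data; the rest were planned. With each SKI list left out in turn, SKI-free peaks numbered from 277 to 1415, with an intergenic share from 34.3% to 59.2%, a median fold from 6.71 to 15.1 and a median distance from 35674 to 41492 bp; the values far from those of all 3 lists came from leaving out WT SKI replicate 1, whose list is the longest. SKI lists held to equal length, which hold fewer peaks, gave 2388 peaks, 32.5% intergenic, a median fold of 16.1 and a median distance of 72702 bp. RUNX1 peaks with a −log10 p-value of at least 10 were 52.0% intergenic with a median fold of 10.7, and SKI peaks held to that value gave a median distance of 43821 bp. With no missing SKI row around the peak there were 73 peaks, 41.1% intergenic, with a median distance of 11993 bp. Without the named places the intergenic share was 47.6%, the median fold 11.0 and the median distance 24300 bp. The cause of these shifts was not tested beyond the number of peaks each alternative keeps. The other 36 of 52 alternative values moved less: counts, which ranged from 185 to 291, stayed within 1.5 times 272, and shares and medians stayed within the interval of the value from all 3 lists.

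No paired analysis was possible because RUNX1 has 1 list and the SKI groups share fewer than 2 replicate numbers. The lists give no library depth, so a region with no listed SKI peak is one where none was called at the depth of these samples, and tag counts between lists are not comparable levels.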
